A study of Mus musculus with 12 samples.

Results

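The genes described here are 34 genes of glycolysis and of the response to low oxygen, measured in mouse embryos that carry 0, 1 or 2 copies of the whirligig allele of Chd7. They were named by symbol from textbook knowledge of the pathway, with earlier results of these data known. The list holds 13 enzymes of glycolysis, 6 transporters and regulators of sugar flux, and 15 other genes that cells raise when oxygen is short. All 34 genes had at least 1 probe on the array, 52 probes in all, and 33 were tested among 22563 genes or transcript identifiers. The remaining one, Mxi1, a repressor related to the Myc partners, had a probe that was well above background on only 1 of the 12 arrays, wild-type replicate 4, and it was not tested.

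Whole female embryos at embryonic day 9.5 were profiled around the time of neural crest migration, in order to find genes whose expression changes when Chd7 is lost. Chd7 encodes a chromatin remodeller, and its mutation causes CHARGE syndrome in humans. Total RNA was labelled with Cy3 and hybridised to 12 one-colour Agilent arrays, 4 for each genotype, which were labelled as biological replicates. The groups were wild type (Chd7+/+), heterozygous (Chd7Whi/+) and homozygous (Chd7Whi/Whi), all on a mixed C3HeB/FeJ background. All came from matings of heterozygous parents, so embryos of every genotype, the wild type included, developed in heterozygous mothers. The allele is present in every cell of the embryo, and embryos were freed from their yolk sacs before RNA was extracted. The gene table linked no probe to Chd7, and its transcript level was therefore not used to check the genotype labels.

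Glycolysis splits glucose to pyruvate in the cytosol and yields ATP without oxygen, and lactate dehydrogenase turns the pyruvate into lactate, which leaves the cell. When oxygen is scarce, prolyl hydroxylases no longer mark the HIF alpha subunits for destruction through the von Hippel-Lindau protein, and the stabilised factors raise the genes of glucose uptake, glycolysis, blood vessel growth and mitochondrial turnover. Early mouse embryos depend strongly on glycolysis before the circulation is established.

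The arrays were alike in several measures of quality but not in all. The share of probes well above background was 70.0% to 76.4% per array, no spot was saturated, and correlations over the tested genes lay between 0.983 and 0.995. Heterozygous replicate 4 had the lowest 75th percentile of signal, 1095 against up to 1721, and the most excluded spots, 386 against as few as 171. Each of the 3 slides held all 3 genotypes. Position 1 on each slide held a wild-type array, replicates 1, 2 and 4, so position was partly confounded with genotype. The median coefficient of variation of the signal was 7.65%, 7.45% and 7.07% on those arrays and 2.89% to 5.43% on the homozygous arrays. It was 3.11% on wild-type replicate 3 and 3.63% to 6.73% on the heterozygous arrays. Every gene of the marker lists of heart muscle, neurons and embryonic blood passed the background filter, and so did all 9 of visceral endoderm and yolk sac, tissue that the dissection was meant to remove. That filter asks for 1 genotype only. The summed heart muscle signal was 3.34 (log2) on heterozygous replicate 1, against 7.16 to 7.88 on the other arrays.

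In homozygous embryos 30 of the 33 tested genes were higher than in wild-type embryos in value, against 53.5% of all genes. Their median log2 fold change was 0.36, with a range of -0.08 to 1.11, while the median over all genes was 0.02. For 19 of the 33 every homozygous array lay above every wild-type array, a state reached by 5.85% of all genes, and for none of them did every homozygous array lie below. None of the 33 passed the test, limma's moderated test over all 12 arrays with a Benjamini-Hochberg adjusted p under 0.05, which called 305 genes (1.35%), 110 of them higher (0.488%). At an unadjusted p under 0.05 the count was 11 of the 33, against 17% of all genes. The values below are log2 signals scaled so that 0 is the 75th percentile of the array's own probes, and differences are in log2 units. In whole embryos fewer cells that express a gene and less RNA per cell cannot be told apart.

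The elevation was of similar size on all 4 homozygous arrays. The median of the 33 genes relative to the wild-type mean was 0.36, 0.29, 0.36 and 0.41 on homozygous replicates 1 to 4, against 0.02, -0.03, 0.01 and -0.01 on wild-type replicates 1 to 4. In heterozygous replicates 1, 2 and 3 it was 0.14, -0.08 and 0.05, near the wild-type arrays. Heterozygous replicate 4 stood apart at 0.95, above every homozygous array. After scaling, the median over all genes was 0.07 on that array, the highest of any array but well below that of the 33 genes. Each array was scaled to its own signal, which limits how far the median over all genes can move. Whether the array as a whole was shifted was therefore not tested.

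**Figure D1:**
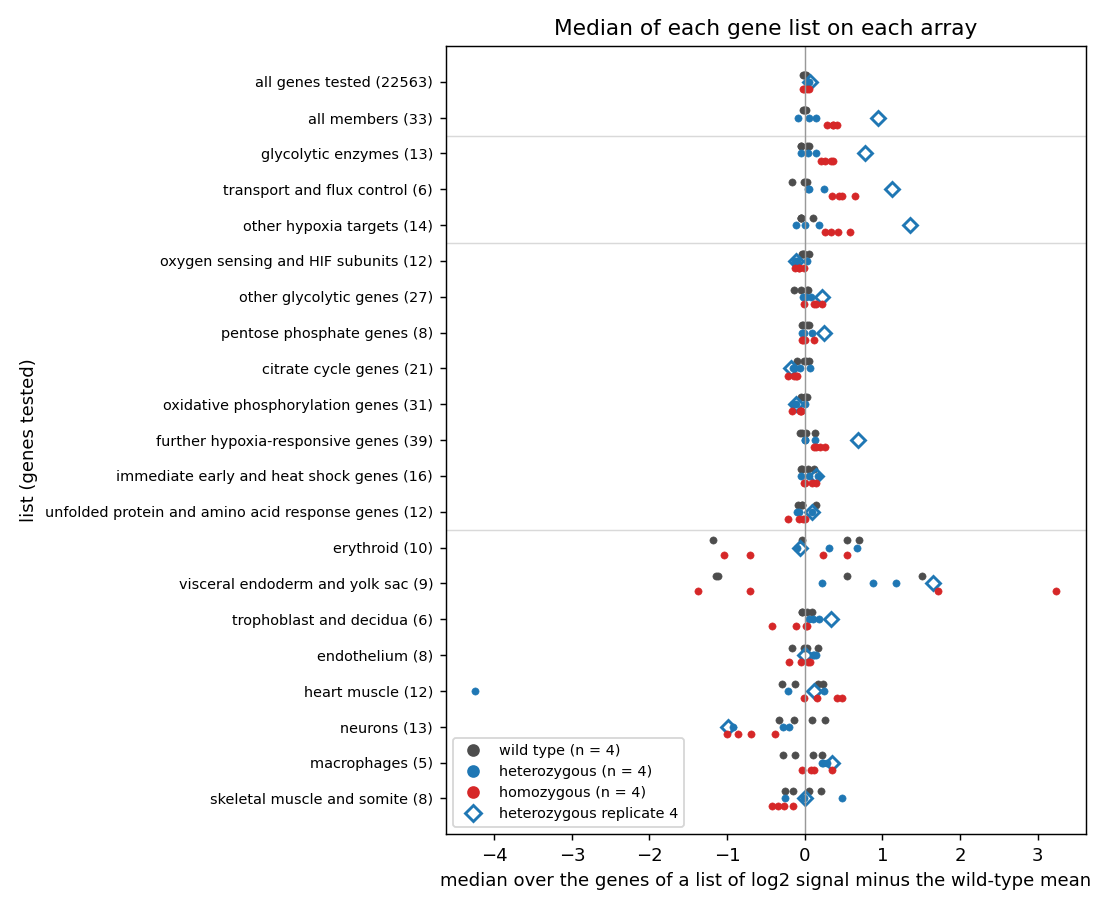
Each point is the median, over the tested genes of a list, of the scaled log2 signal minus the wild-type mean on 1 array, in log2 units, coloured by genotype, with heterozygous replicate 4 as an open diamond. The 4 homozygous arrays lie between 0.29 and 0.41 for the 33 genes, heterozygous replicate 4 lies at 0.95, and the citrate cycle list lies between -0.22 and -0.10 on the homozygous arrays.

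Because that array enters the spread which the 3 genotypes share, the homozygous comparison was also made without it. The array was singled out after its values on these genes were seen. Leaving it out lowers the spread of genes on which it is extreme. The calls and adjusted p without it, here and for single genes below, are therefore descriptions. A fit of the homozygous and wild-type arrays alone leaves it out too. With heterozygous replicate 4 left out, 7 of the 33 genes passed the test, all higher, beside 187 of all genes (0.829%). The homozygous fold changes against wild type were the same, which a fit with 1 mean per genotype fixes in advance. They were Pdk1, Tpi1, Ddit4, Pfkp, Ndrg1, Pgk1 and Egln3, with adjusted p between 0.0112 and 0.0401. In a fit of the homozygous and wild-type arrays alone, 9 passed, all higher, beside 0.855% of all genes; Adm and Pfkl joined the other 7. With array weights, Pfkl and Pdk1 passed, beside 0.988% of all genes higher. The call therefore depended on the spread among heterozygous arrays. In fits with 1 mean per genotype and neither blocks nor array weights, heterozygous arrays do not enter the size of the homozygous differences.

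Of the 34 genes, 31 had a promoter in a RefSeq table of assembly GRCm38.p6, with 48 start sites in all. The motif searched was the core of the hypoxia response element, to which HIF binds, written ACGTG or GCGTG and read on both strands, where the reverse strand gives CACGT and CACGC and a palindromic CACGTG counts on both. In the 250 bases before the start, 38 of the 48 member windows held a core (79.2%), against 12679 of all 32851 windows (38.6%). The narrower core ACGTG was in 23 of the 48 windows (47.9%) and in 16.6% of all. The member windows were also richer in CpG, with a median of 14 per window against 6, and the part of that in the higher share was not tested. A match is a description of the letters and not a bound site. The windows below are shown for 5 genes that passed in the fits above and for Hk2, whose groups did not separate; each reads 5′ to 3′ on the gene's strand and ends at the base before the start, with cores in capitals.
Pdk1, chr2:71872974-71873223, plus strand: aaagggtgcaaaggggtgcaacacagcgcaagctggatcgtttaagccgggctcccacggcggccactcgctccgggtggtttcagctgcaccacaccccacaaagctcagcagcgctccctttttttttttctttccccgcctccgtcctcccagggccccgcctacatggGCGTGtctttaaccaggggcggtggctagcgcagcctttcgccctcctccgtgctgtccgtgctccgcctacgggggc
Pfkp, chr13:6648772-6649021, minus strand: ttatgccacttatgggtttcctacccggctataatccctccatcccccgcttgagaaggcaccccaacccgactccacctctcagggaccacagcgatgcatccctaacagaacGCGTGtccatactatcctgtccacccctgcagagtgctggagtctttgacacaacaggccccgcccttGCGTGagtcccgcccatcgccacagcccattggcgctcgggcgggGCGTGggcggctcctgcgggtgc
Pgk1, chrX:106186850-106187099, plus strand: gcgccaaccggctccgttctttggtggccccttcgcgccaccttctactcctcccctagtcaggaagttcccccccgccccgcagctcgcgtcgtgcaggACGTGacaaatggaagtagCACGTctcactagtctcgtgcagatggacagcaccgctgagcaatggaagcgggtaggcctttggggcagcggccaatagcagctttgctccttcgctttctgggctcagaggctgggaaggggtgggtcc
Ddit4, chr10:59951771-59952020, minus strand: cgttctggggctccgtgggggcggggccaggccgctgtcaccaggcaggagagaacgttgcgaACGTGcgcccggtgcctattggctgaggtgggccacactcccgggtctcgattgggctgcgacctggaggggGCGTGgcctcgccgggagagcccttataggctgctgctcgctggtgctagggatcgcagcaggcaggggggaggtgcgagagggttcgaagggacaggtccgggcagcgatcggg
Egln3, chr12:54203875-54204124, minus strand: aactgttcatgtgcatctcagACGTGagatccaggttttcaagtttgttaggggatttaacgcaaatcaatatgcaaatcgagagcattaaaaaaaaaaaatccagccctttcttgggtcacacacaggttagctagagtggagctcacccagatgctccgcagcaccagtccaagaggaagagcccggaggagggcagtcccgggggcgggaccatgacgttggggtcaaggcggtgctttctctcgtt
Hk2, chr6:82774455-82774704, minus strand: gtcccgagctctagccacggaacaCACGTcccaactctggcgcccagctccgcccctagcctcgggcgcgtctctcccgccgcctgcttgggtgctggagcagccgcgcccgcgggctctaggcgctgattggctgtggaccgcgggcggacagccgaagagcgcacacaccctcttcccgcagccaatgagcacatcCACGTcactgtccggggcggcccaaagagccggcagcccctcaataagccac
The counts of cores were 1 in Pdk1, 3 in Pfkp, 2 in Pgk1, 2 in Ddit4, 1 in Egln3 and 2 in Hk2, so a core was present both before genes that were higher in homozygous embryos and before one that was not. Pdk1 has a second start in the table, at chr2:71874654-71874903, whose window held 0 cores. The window of Tpi1, which also passed in the fits above, held none.

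Among the 13 glycolytic enzymes, 12 were higher in homozygous embryos in value, with a median log2 fold change of 0.30. For 7 of the 13 every homozygous array lay above wild type, against 5.85% of all genes. Phosphofructokinase commits sugar to glycolysis, and its 3 subunits are encoded by separate genes. Pfkl, the liver-type subunit, read 1.50, 1.96, 1.88 and 1.42 in wild-type replicates 1 to 4 and 2.43, 2.57, 2.26 and 2.63 in homozygous replicates 1 to 4. The heterozygous arrays read 2.38, 1.64, 2.35 and 2.77. All homozygous arrays lay above all wild-type arrays, and 3 of the 4 heterozygous arrays did too, replicate 2 being the exception. The log2 fold change in homozygotes was 0.78 ± 0.21 (SE, limma adjusted p = 0.106), or 1.72-fold. In the fit of those genotypes alone, which also leaves out heterozygous replicate 4, the limma adjusted p of Pfkl was 0.0389.

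Pfkp, the platelet-type subunit, read -1.92, -1.65, -1.27 and -1.83 in wild-type embryos and -0.63, -0.78, -0.94 and -0.62 in homozygous embryos. Its heterozygous values were -1.94, -1.64, -1.14 and 0.41. The homozygous arrays all lay above the wild-type arrays, whereas among heterozygotes replicate 4 alone exceeded every homozygous array and the other 3 reached at most -1.14. The homozygous log2 fold change was 0.93 ± 0.40 (limma adjusted p = 0.269), and 0.93 ± 0.19 (adjusted p = 0.033) without heterozygous replicate 4. A second, dimmer Pfkp probe gave 0.44 with overlapping groups, wild-type replicate 3 at -4.49 and homozygous replicate 2 at -4.76. On that probe heterozygous replicate 4 (-4.34) did not exceed homozygous replicate 4 (-4.33). The muscle-type subunit Pfkm had means of 0.97 ± 0.04 in wild-type and 1.03 ± 0.06 in homozygous embryos (SD, n = 4), with a log2 fold change of 0.06 ± 0.08 (limma adjusted p = 0.728).

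Tpi1, triosephosphate isomerase, interconverts the products of aldolase. Its values were 5.47, 5.57, 5.48 and 5.32 in wild-type arrays and 5.95, 5.90, 5.87 and 6.06 in homozygous arrays. Heterozygous embryos read 5.69, 5.45, 5.53 and 6.35. The lowest homozygous array lay above the highest wild-type array, and replicate 4 was the highest heterozygous array by a wide margin. On a second probe homozygous replicate 2 (3.62) lay below wild-type replicate 2 (3.65), at a log2 fold change of 0.49. Tpi1 was 1.40-fold higher in homozygotes (log2 fold change 0.49 ± 0.17, limma adjusted p = 0.188; 0.49 ± 0.09, adjusted p = 0.0233, without heterozygous replicate 4).

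Pgk1, phosphoglycerate kinase, carries out the first ATP-yielding step. It read 5.99, 6.18, 6.07 and 6.01 in wild type and 6.50, 6.49, 6.46 and 6.63 in homozygotes. The heterozygous values were 6.11, 5.89, 6.26 and 6.89. The homozygous arrays were tightly grouped above the wild-type arrays (SD 0.07 against 0.09), and the heterozygous group straddled both. Pgk1 was higher in homozygotes by 0.46 ± 0.17 (log2, limma adjusted p = 0.224), with 0.46 ± 0.10 and an adjusted p of 0.0401 without heterozygous replicate 4.

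Pgam1, phosphoglycerate mutase, was the 1 gene of the 33 whose heterozygous arrays all lay above all wild-type arrays, a state that 4.49% of all genes reached. Wild-type embryos read 5.98, 6.11, 6.14 and 6.10, and heterozygous embryos 6.20, 6.17, 6.35 and 6.70. Homozygous embryos read 6.34, 6.29, 6.44 and 6.42. The margin was narrow, 6.17 against 6.14, and both mutant groups had nearly the same mean. Log2 fold changes were 0.27 ± 0.11 in heterozygotes (limma adjusted p = 0.297) and 0.29 ± 0.11 in homozygotes (adjusted p = 0.24).

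Ldha, the lactate dehydrogenase subunit that favours lactate production, read 6.66, 6.78, 7.35 and 6.99 in wild-type, 7.33, 7.12, 7.37 and 7.59 in heterozygous, and 7.01, 6.95, 7.65 and 7.35 in homozygous embryos. Both mutant groups overlapped with wild type, whose replicate 3 lay within the range of each mutant group. The log2 fold change was 0.41 ± 0.18 in heterozygotes (limma adjusted p = 0.32) and 0.30 ± 0.18 in homozygotes (adjusted p = 0.43). Its other tested probes gave 0.57 and 0.47 in homozygotes.

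The other 6 enzymes are given by their homozygous differences. Aldoa, the main aldolase, and Gpi1, the glucose phosphate isomerase, did not overlap between homozygotes and wild type, at log2 fold changes of 0.26 ± 0.20 and 0.19 ± 0.17. Aldoc, a brain-enriched aldolase, and Eno1, the ubiquitous enolase, were at 0.36 ± 0.21 and 0.17 ± 0.15 with overlapping groups. Of the hexokinases, which trap glucose in the cell, Hk1 was at 0.32 ± 0.15 and Hk2, the hypoxia-inducible form, at -0.0090 ± 0.15 (limma adjusted p = 0.983). Hk2 means were 2.08 ± 0.24 in wild-type and 2.07 ± 0.07 in homozygous embryos (SD, n = 4), and its direction turned under another background correction and with other blocks.

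**Figure D2:**
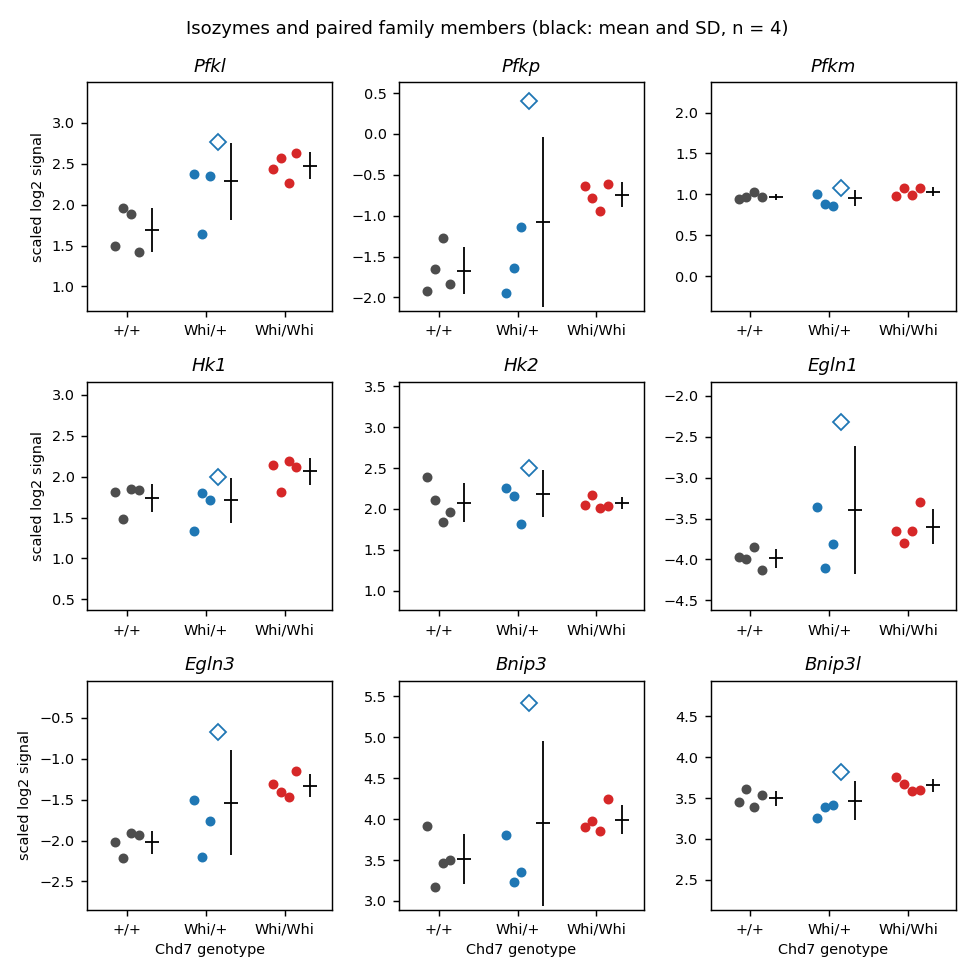
Points are the scaled log2 signal of single arrays by genotype for 9 genes of families with several members, black bars are the mean and SD (n = 4), and the open diamond is heterozygous replicate 4; panels have axes of equal span but come from different probes and are not comparable in level. The homozygous points of Pfkl, Pfkp and Egln3 lie wholly above the wild-type points, whereas those of Pfkm and Hk2 overlap with them.

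Transport and flux control genes had the largest median of the 3 role groups, a log2 fold change of 0.48 in homozygotes. Of the 6, 5 were higher in value and 4 lay above wild type without overlap, against 5.85% of all genes. Pdk1, the kinase that shuts pyruvate out of the mitochondrial citrate cycle, had the smallest p of the 33 genes. Its values were 0.83, 0.64, 1.07 and 0.92 in wild-type, 1.12, 0.92, 1.06 and 1.99 in heterozygous, and 1.50, 1.62, 1.56 and 1.95 in homozygous embryos. Heterozygous replicates 1 to 3 sat close to wild type, and replicate 4 sat just above the highest homozygous array. The log2 fold change in homozygotes was 0.79 ± 0.21 (limma adjusted p = 0.098), or 1.73-fold. Without heterozygous replicate 4, left out after its values were seen, the difference was 0.79 ± 0.12 with a limma adjusted p of 0.0112. The adjusted p was 0.0249 in the fit of homozygotes and wild type alone and 0.0417 with array weights.

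Slc2a3, the high-affinity glucose transporter GLUT3, read 3.57, 4.29, 4.11 and 3.79 in wild type and 5.17, 5.15, 4.46 and 4.68 in homozygotes. Heterozygous arrays read 4.32, 3.82, 4.26 and 5.48. Homozygous and wild-type arrays did not overlap, and the first 2 homozygous replicates were the highest of their group. The mean difference was 0.92 ± 0.31 (log2, limma adjusted p = 0.187), or 1.89-fold. The ubiquitous transporter Slc2a1 (GLUT1) was at 0.20 ± 0.16 with overlapping groups.

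Slc16a3, which exports lactate, read 4.62, 4.17, 4.38 and 4.41 in wild-type, 4.81, 4.13, 4.46 and 5.52 in heterozygous, and 4.71, 4.92, 4.83 and 5.04 in homozygous embryos. The groups were separated by the small gap between 4.62 and 4.71, and the log2 fold change was 0.48 ± 0.24 (limma adjusted p = 0.33). Pfkfb3 makes the sugar phosphate that activates phosphofructokinase. It read 0.60, 0.35, 0.46 and 0.49 in wild type, 0.72, 0.66, 0.29 and 1.74 in heterozygotes and 0.81, 0.84, 1.02 and 1.14 in homozygotes. Homozygous and wild-type arrays were again separate, with a log2 fold change of 0.48 ± 0.24 (limma adjusted p = 0.339) and 0.95 on its second probe. The related enzyme Pfkfb4 was the exception of this group, with means of -0.80 in wild-type and -0.86 in homozygous embryos.

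**Figure D3:**
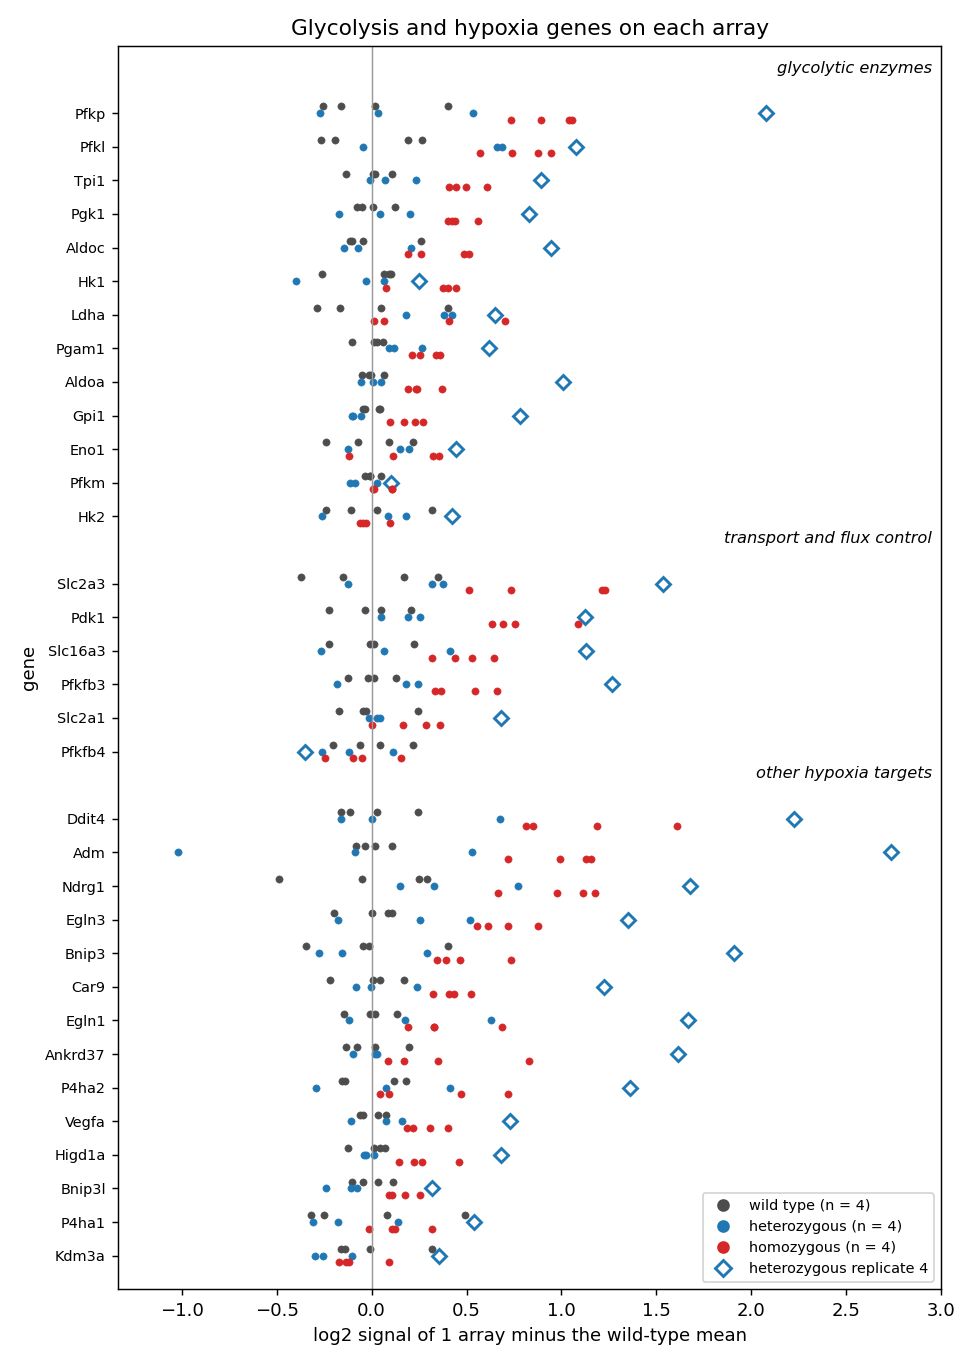
Each row is 1 of the 33 tested genes, by role, and each point is 1 array's scaled log2 signal minus the gene's wild-type mean, coloured by genotype, with heterozygous replicate 4 as an open diamond. The homozygous points are to the right of the wild-type points for most genes, and heterozygous replicate 4 is the highest array in 29 of the 33 rows.

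Of the other hypoxia targets, 13 of the 14 tested were higher in homozygotes in value, with a median log2 fold change of 0.37. Of the 14, 8 lay above wild type without overlap, against 5.85% of all genes. Ddit4, also called Redd1, restrains mTORC1 signalling and had the largest fold change of the 33. Its values were 2.88, 2.52, 2.47 and 2.66 in wild-type, 3.31, 2.47, 2.64 and 4.86 in heterozygous, and 3.45, 3.49, 3.82 and 4.24 in homozygous embryos. Homozygous arrays lay wholly above wild type; heterozygous replicate 4 was higher than any of them and replicate 1 lay between the groups. Ddit4 was 2.17-fold higher in homozygotes (log2 fold change 1.11 ± 0.42, limma adjusted p = 0.225; 1.11 ± 0.22, adjusted p = 0.0284, without heterozygous replicate 4).

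Ndrg1, a stress-induced gene linked to myelin and to growth arrest, read -0.52, -0.86, -0.56 and -1.30 in wild-type arrays and 0.17, 0.30, -0.14 and 0.37 in homozygous arrays. Heterozygous arrays read -0.04, -0.66, -0.48 and 0.87. The homozygous group was separate from wild type, while heterozygous replicate 2 lay among the wild-type values and replicate 3 just above them. The log2 fold change was 0.98 ± 0.29 in homozygotes (limma adjusted p = 0.144; 0.98 ± 0.20, adjusted p = 0.034, without heterozygous replicate 4) and 0.73 ± 0.29 in heterozygotes (adjusted p = 0.288).

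The prolyl hydroxylases that mark HIF for destruction are themselves raised by HIF. Egln3 read -2.02, -2.22, -1.91 and -1.94 in wild-type, -1.51, -2.20, -1.77 and -0.67 in heterozygous, and -1.30, -1.41, -1.47 and -1.15 in homozygous embryos. The homozygous arrays formed a tight group above wild type, with heterozygous replicates 1 to 3 below them and replicate 4 above. Its log2 fold change was 0.69 ± 0.25 (limma adjusted p = 0.21), with 0.69 ± 0.15 and an adjusted p of 0.0401 without heterozygous replicate 4; a second probe gave 0.75.

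Egln1, the main oxygen sensor, read -3.97, -3.99, -3.85 and -4.13 in wild type, -3.36, -4.10, -3.81 and -2.32 in heterozygotes, and -3.66, -3.79, -3.66 and -3.30 in homozygotes. The homozygous arrays lay just above the wild-type arrays, and the heterozygous mean of -3.40 ± 0.78 (SD, n = 4) was carried by replicate 4. Log2 fold changes were 0.38 ± 0.30 in homozygotes (limma adjusted p = 0.535) and 0.59 ± 0.30 in heterozygotes (adjusted p = 0.359). Under another background correction (normexp), which placed the median of all genes at -0.10, the homozygous difference was -0.0022.

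Vegfa drives blood vessel growth. It read 0.91, 0.83, 0.82 and 0.95 in wild-type, 0.95, 0.77, 1.04 and 1.61 in heterozygous, and 1.10, 1.19, 1.07 and 1.28 in homozygous embryos. The homozygous and wild-type arrays did not overlap on this probe, at a log2 fold change of 0.28 ± 0.15 (limma adjusted p = 0.37). A second Vegfa probe gave 0.48 with overlap, homozygous replicate 2 at -1.78 and wild-type replicate 3 at -1.76. Car9, a carbonic anhydrase that exports acid, read -4.07, -4.20, -4.23 and -4.46 in wild type, -4.00, -4.32, -4.25 and -3.02 in heterozygotes and -3.72, -3.92, -3.81 and -3.83 in homozygotes. The homozygous arrays were higher than the wild-type arrays by 0.42 ± 0.23 (log2, limma adjusted p = 0.381), and the difference was -0.04 under the other background correction.

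Adm, the vessel-dilating peptide adrenomedullin, is given on every array because of its spread, a choice made after its values were seen. It read -2.71, -2.62, -2.76 and -2.81 in wild-type and -1.59, -1.73, -2.00 and -1.56 in homozygous embryos. The heterozygous arrays read -3.74, -2.81, -2.19 and 0.01. Homozygotes were thus separate from a tight wild-type group (SD 0.20 and 0.08), while heterozygotes spanned far more than both. Adm differed between homozygotes and wild type by 1.0 ± 0.58 (log2) over all arrays (limma adjusted p = 0.399) and by 1.0 ± 0.11 with an adjusted p of 0.00535 in the fit of those genotypes alone. On heterozygous replicate 1, where Adm was lowest, the heart muscle markers had a median of -4.25 relative to the wild-type mean, against -0.30 to 0.48 on the other 11 arrays; the part of that in the Adm value was not tested.

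The other 7 tested targets are given by their homozygous differences. Higd1a, a mitochondrial hypoxia protein, did not overlap between homozygotes and wild type at 0.27 ± 0.15. Bnip3 and Bnip3l, which mark mitochondria for removal, were at 0.48 ± 0.39 and 0.16 ± 0.12. Other Bnip3l probes gave 0.23, 0.15 and 0.55, the last without overlap. Ankrd37 was at 0.36 ± 0.33, and the collagen prolyl hydroxylase subunits P4ha1 and P4ha2 at 0.13 ± 0.21 and 0.33 ± 0.29. Kdm3a, a histone demethylase raised by HIF, was at -0.08 ± 0.15 (limma adjusted p = 0.812), the lowest of the 33. For 12 of the tested genes more than 1 probe was tested, and in all 12 the probes had the same sign in homozygotes; 47 of the 50 tested probes were above 0.

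**Figure D4:**
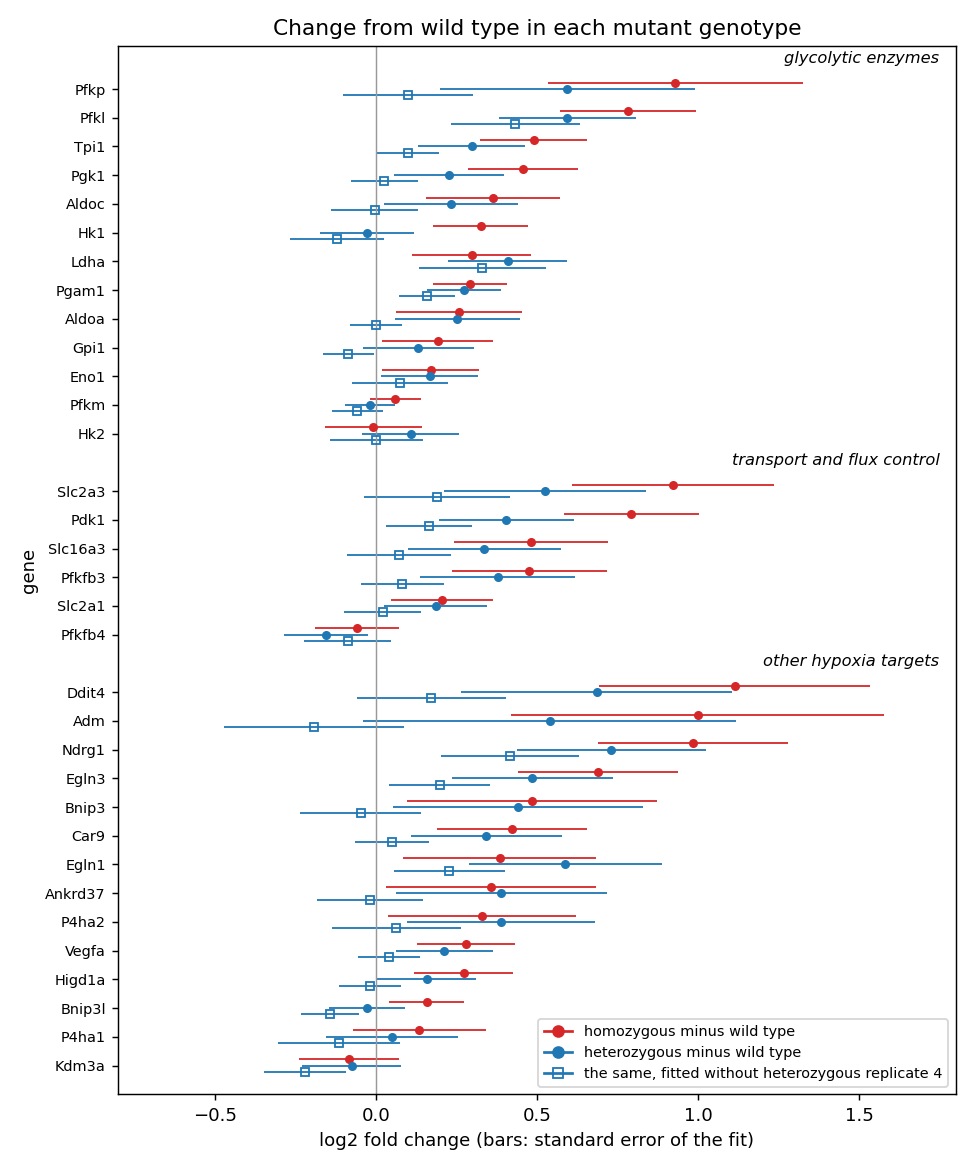
Points are log2 fold changes against wild type with bars of 1 standard error from limma, genes on the vertical axis by role; filled circles are homozygotes and heterozygotes over all 12 arrays, and open squares are heterozygotes without replicate 4. Homozygous values lie above 0 for 30 of 33 genes, and the open squares lie above 0 for 21 of 33, at a median of 0.04.

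Against wild type, heterozygotes had 28 of 33 genes higher in value (56.9% of all genes were), with a median log2 fold change of 0.30 against 0.04 over all genes. No gene of the 33 passed, and 2 of all genes did (0.00886%); at an unadjusted p under 0.05 the count was 4 of the 33 and 3481 of all genes (15.4%). The median rested on replicate 4. Without it the median was 0.04, with 21 of 33 higher in value, and the lowest adjusted p was 0.51.

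Heterozygous replicate 4 was the highest of all 12 arrays for 29 of the 33 genes, against 19.8% of all genes. It lay at least 1 log2 unit above the wild-type mean for 16 of the 33, against 3.56% of all genes. The largest such differences were 2.73 for Adm, 2.23 for Ddit4, 2.08 for Pfkp, 1.91 for Bnip3, 1.68 for Ndrg1 and 1.67 for Egln1. The role groups had medians of 0.78 for the enzymes, 1.13 for transport and flux control and 1.35 for the other targets on that array. Pfkfb4 was the lowest there, at -0.35. The order of the groups was thus enzymes lowest and other targets highest on this array, while on the homozygous arrays the enzymes ranged from 0.21 to 0.37 and the other targets from 0.26 to 0.58.

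Homozygotes were also set against heterozygotes. With all arrays the median log2 fold change was 0.10, and 27 of 33 genes were higher in homozygotes in value, against 40.9% of all genes. None was separate from the heterozygotes, against 1.33% of all genes, and none passed, against 3 of all genes (0.0133%); at an unadjusted p under 0.05 the count was 1 of the 33 and 6% of all genes. The median depended on the heterozygous arrays. It was 0.35 with 31 of 33 higher without replicate 4, -0.017 with 16 higher without replicate 2, 0.048 with 21 higher without replicate 1 and 0.049 with 19 higher without replicate 3. For 18 of the 33 every homozygous array lay above heterozygous replicates 1 to 3, against 3.12% of all genes. No gene of the 33 passed without replicate 4, against 0.0133% of all genes. Within slides 1, 2 and 3 the median difference between homozygotes and wild type was 0.35, 0.30 and 0.51, with 28, 30 and 30 of 33 genes higher. The medians over all genes were -0.06, 0.05 and 0.03. Each slide held few arrays for this: 1 homozygous and 1 wild-type on slide 1, 1 and 2 on slide 2, and 2 and 1 on slide 3. Within the same slides heterozygotes differed from wild type by a median of 0.0028, 0.053 and 1.06, replicate 4 being the only heterozygous array on slide 3.

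Other genes of the pathway had smaller medians or medians below 0. Of 27 further glycolytic genes, 18 were higher in homozygotes in value, the median was 0.16 and 1 rose, Galm, which converts sugar anomers (0.75 ± 0.16, limma adjusted p = 0.044). Pdk2, another kinase of the same family as Pdk1, was at 0.54 ± 0.13 (adjusted p = 0.083). Of 39 further hypoxia-responsive genes, 29 were higher in value, 8 without overlap (5.85% of all genes), at a median of 0.22, and none passed. Those with the smallest p were Zfp395 at 0.58 ± 0.14 (adjusted p = 0.068) and Bhlhe41, a clock and hypoxia repressor, at 0.74 ± 0.23 (adjusted p = 0.151). This list had a median of 0.69 on heterozygous replicate 4 and of 0.12 to 0.26 on the homozygous arrays; wild-type replicate 1 (0.13) and heterozygous replicate 1 (0.14) lay within the homozygous range.

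Genes of mitochondrial oxidation had medians below 0 in both mutant groups. The 21 citrate cycle and pyruvate dehydrogenase genes had a median of -0.12 in homozygotes, with 6 of 21 above 0. Of the 21, 7 lay entirely below wild type (8.22% of all genes did), and none passed. Their smallest p belonged to Pdhb, a subunit of pyruvate dehydrogenase, the complex that Pdk1 switches off, at -0.40 ± 0.11 (limma adjusted p = 0.109). The 31 oxidative phosphorylation genes had a median of -0.06, with 6 entirely below wild type, and none passed. The 8 pentose phosphate genes had a median of 0.05, with none passing. In heterozygotes the citrate cycle median was -0.09, with 2 of 21 above 0. The heterozygous oxidative phosphorylation median was -0.11, with 4 of 31 above 0. On heterozygous replicates 1 to 4 that list was at -0.12, -0.0025, -0.16 and -0.11, against -0.17 to -0.05 on the homozygous arrays.

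Transcripts of the HIF system itself were mostly below wild type in value. The 12 genes of oxygen sensing and HIF subunits had a median of -0.12 in homozygotes, 4 of them above 0, and none passed. Hif1a was at -0.18 (limma adjusted p = 0.725), its partner Arnt at -0.13 (adjusted p = 0.679) and Vhl at -0.11 (adjusted p = 0.683). Epas1, which encodes HIF-2 alpha, was at 0.55 ± 0.24 in homozygotes (adjusted p = 0.27) and 0.71 ± 0.24 in heterozygotes, and it was 1.34 above the wild-type mean on heterozygous replicate 4, where Hif1a was at -0.40. HIF activity is set mainly by protein stability, which arrays of RNA do not measure.

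Markers of other cell types and of stress were set beside the 33 genes on each array. Those of neurons had a median of -0.85 in homozygotes, and 4 of 13 fell, against 0.864% of all genes. Their summed level was 2.18 to 2.74 (log2) in wild type, 1.63 to 2.49 in heterozygotes and 1.61 to 2.21 in homozygotes. On single arrays this list was at -0.93 on heterozygous replicate 3, where the median of the 33 genes was 0.05, and at -0.99 on heterozygous replicate 4. The 9 visceral endoderm and yolk sac markers ranged over the homozygous arrays from -1.38 on replicate 3 to 3.24 on replicate 1, with summed levels of 2.53 to 6.37 (log2) in homozygotes, 4.02 to 5.12 in heterozygotes and 2.84 to 5.15 in wild type, and none passed. The 33 genes had the same median, 0.36, on both of those homozygous arrays. The skeletal muscle and somite list had a median of -0.28 in homozygotes, with 2 of 8 tested genes fallen, and lay at -0.42 to -0.15 on the homozygous arrays, while wild-type replicate 2 and heterozygous replicate 2 were at -0.25 and heterozygous replicate 4 at 0.0023. The erythroid list had a median of -0.29 with 1 of 10 higher and none past the threshold, and ranged on single arrays from -1.03 to 0.54 in homozygotes and from -1.18 to 0.70 in wild type. Of 5 tested macrophage genes 1 rose, and the list lay at -0.03 to 0.35 on the homozygous arrays and at 0.36 on heterozygous replicate 4. Of the trophoblast and decidua list, 6 of 9 were tested and the median on heterozygous replicate 4 was 0.34; Tpbpa and Prl8a2 were not above background on any array. The immediate early and heat shock list had medians of 0.15 on heterozygous replicate 4 and 0.11 for the homozygous difference, but its member Ier3 was 3.14 above the wild-type mean on that array and at 1.46 ± 0.54 in homozygotes (limma adjusted p = 0.219). The part of these lists in the values of the 33 genes was not tested.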

How the data were processed

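Each spot's intensity was taken from the deposited processed signal, background-corrected within the array by Agilent Feature Extraction 10.7.3.1 and not scaled between arrays, per the file headers; the deposited value table held the same values. From these, log2 of the signal minus the array's 75th percentile was computed, without control spots (1377) or spots marked as outliers. Spots of a probe were averaged. Probes were named through unversioned transcript accessions in a RefSeq table of assembly GRCm38.p6 (26055 of 39429 probes), and each gene was represented by the probe with the highest mean. Probes that exceeded background on all 4 arrays of 1 or more genotypes were tested with limma 3.58.1 (R 4.3.3), with 1 mean per genotype over all 12 arrays and Benjamini-Hochberg adjustment over 22563 genes at 0.05. The script was tested on simulated data.

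Values on every array are given for the 4 genes of each role with the smallest p in homozygotes, the next 4 in heterozygotes, and genes past the threshold. Of the pathway lists the 2 genes with the smallest p and named HIF genes are given. Since the genes and lists were chosen with earlier results of these data known, counts and medians are descriptions. Replicates were numbered in accession order. The labels call them biological replicates without naming litters, and p-values measure the spread between these samples only; 4 arrays per genotype limit the precision. Alternatives covered background correction, scaling, filters, probe choice, blocks, array weights and leaving out each array.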

Additional observations from a re-analysis of the deposited data

Results flagged for a closer look

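Of the 34 genes and their median, examined in each of 3 genotypes, 6 genes had an array whose gap to its nearest neighbour took a share of the group's range above Dixon's critical value for 4 arrays; chance gives about 1 in 20 groups. In 5 of them heterozygous replicate 4 was the high array, with shares of 0.949 for Gpi1, 0.899 for Aldoa, 0.918 for Slc2a1, 0.926 for Ankrd37 and 0.928 for Higd1a. On these genes that array read 6.71, 8.06, 5.82, 1.20 and 4.22, while the other heterozygous arrays reached at most 5.87, 7.10, 5.18, -0.39 and 3.55. High outliers of that array made up 1.25% of all genes. Its cause was not tested. The remaining gene was Hk1, whose wild-type replicate 2 was low at 1.48, with a share of 0.894.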

How the results depend on the processing

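In homozygotes 30 of the 33 genes were higher in value, and 30 to 32 with each array left out. The median of the 33 genes in homozygotes was 0.36, 0.26 with slide as a block and 0.28 to 0.43 when each array was left out in turn. The genes of the 33 that passed were 0, but 9 in a fit of only the genotypes compared, 2 with array weights, and 0 to 7 with each array left out (1 without heterozygous replicate 2, 7 without heterozygous replicate 4). The fits that gave 9, 2, 1 and 7 called 0.855%, 0.988%, 0.709% and 0.829% of all genes higher. Over all genes the homozygous count of 305 became 91 with normexp, which moved the median of all genes to -0.10, 188 with no filter, 20 with array position as a block, 532 with array weights, and 112 to 447 with each array left out. The heterozygous count of 2 became 1 with normexp, with probes above background on all 12 arrays, with only the genotypes compared and with a trended robust fit, 5 with no filter and with slide as a block, and 0 to 3 with each array left out. The count between homozygotes and heterozygotes, 3, became 0 with normexp, position as a block and only the genotypes compared, 1 with quantile normalization, 8 with array weights, and 1 to 6 with each array left out; of the 33 genes 27 were higher there, and 16 to 31 with each array left out, with a median of 0.10 and of -0.017 to 0.35. The number in the sample titles, whose meaning is not given, was tried as a replicate block. Of 11 same-number pairs across genotypes 4 had a correlation of deviations over 0.1 (range -0.32 to 0.29). Deviations were taken from the mean of each genotype's 4 arrays, which pushes apart arrays of 1 genotype that share a number. The check therefore cannot tell whether the number pairs the samples, and the main fit did not use it. With that replicate block the counts were 19, 0 and 0 and the homozygous median 0.23.

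Signs turned for these genes. In homozygotes Hk2 (-0.0090) was 0.13 with normexp, 0.038 with quantile normalization, 0.19 with position as a block, 0.086 with the replicate block and 0.013 with array weights. With normexp Egln1 was -0.0022, Car9 -0.038 and Kdm3a 0.032, and with position as a block Pfkm was -0.041, Ldha -0.018, Pfkfb4 0.091 and Kdm3a 0.036. In heterozygotes position as a block gave Hk1 0.064, Eno1 -0.027, Pdk1 -0.059, Pfkfb4 0.084, Bnip3l 0.11 and Kdm3a 0.00068; the mean of all probes gave Hk1 0.10 and Bnip3l 0.045, quantile normalization Eno1 -0.0019 and Bnip3l 0.00093, and normexp Kdm3a 0.063. P4ha1 was -0.021 with median scaling, -0.045 with slide as a block, -0.026 with the replicate block and -0.012 with array weights. With each array left out, homozygous values ranged from -0.088 to 0.097 for Hk2, -0.13 to 0.014 for Pfkfb4 and -0.14 to 0.021 for Kdm3a. Heterozygous values ranged from -0.19 to 1.06 for Adm, -0.048 to 0.68 for Bnip3, -0.019 to 0.55 for Ankrd37, -0.0043 to 0.36 for Aldoc, -0.086 to 0.21 for Gpi1, -0.018 to 0.22 for Higd1a, -0.12 to 0.095 for Hk1, -0.059 to 0.013 for Pfkm, -0.14 to 0.043 for Bnip3l, -0.11 to 0.21 for P4ha1 and -0.22 to 0.030 for Kdm3a. Apart from the constructions named, the cause of these changes was not tested. Signal over background limits Mxi1, which had none to test. The signs of Car9 and Egln1, both well above background on all 12 arrays, turned with normexp, as did those of Hk2 and Kdm3a.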
